A study of Drosophila melanogaster with 18 samples.

Results

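The gene phu (RefSeq identifier CG8147, chromosome arm 3R, older symbol Alp3) encodes a member of the alkaline phosphatase family of Drosophila melanogaster. It was chosen from its own readout: its signal was higher when E2f1 and Dp were overexpressed and lower in both the Dp and the E2f1 mutants. On the array it is read by 1 probe set, 154821_at, which makes it 1 of 7927 named genes that passed the filter on dim probe sets. The values that chose it are given below as a description, without a test, and phu itself is tested only in comparisons that the choice did not use as such. The control arrays of 8 to 10 h stood in the choice and also enter every test of phu against that control, the change with age included. Calls for other genes are also given in comparisons that the choice used, though not for every gene in every comparison.

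RNA of whole embryos was hybridised to 18 Affymetrix arrays, 2 for each of 9 groups. At 8 to 10 h of development the control was the Arm-Gal4 driver crossed to yw, and the same driver was crossed to UAS lines for E2f1/Dp, E2f2/Dp, Rbf1 or E2f1336-805, a dominant negative E2f1 fragment without the DNA-binding domain. Mutants of that age were Dpa2/Dpa4, from parents with a CyO[Kr-GFP] balancer, and E2f17172/E2f191, from parents with a TM3[Kr-GFP] balancer, both picked by an automated embryo sorter. The 14 to 16 h arrays held the control cross and, beside it, E2f17172/E2f191 mutants that were selected by hand. The mutants did not come from a driver cross, so in every comparison with the control their stock background and the missing driver cannot be told apart from the genotype. E2f1 lies on the same chromosome arm as phu, 3R, so the phu copies of E2f1 mutants came from the mutant chromosomes, whereas Dp lies on 2R. Each RNA was a pool of embryos, in which fewer cells that express a gene and less RNA per cell cannot be told apart. The labels do not state whether the 2 RNA samples of a group were collected separately. The p-values thus rest on the spread between samples that may be technical repeats. The manipulated genes read as labelled: E2f2 was 21453 and 21003 with E2f2/Dp (control 2376 and 1979), Rbf was 2213 and 1908 with Rbf1 (control 344 and 241), and Dp was 497 and 678 in Dp mutants (control 2090 and 1649). E2f1 read 326 and 811 in E2f1 mutants of 8 to 10 h, below both control arrays (2654 and 1325), but at 14 to 16 h the mutants (594 and 448) overlapped with the control (592 and 593).

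Alkaline phosphatases are enzymes that remove phosphate groups from a wide range of substrates and are usually secreted or anchored to the outer face of the cell membrane. E2F transcription factors bind DNA together with a Dp partner. E2f1 is the fly's activating E2F and E2f2 its repressing one, and Rbf1, a retinoblastoma-family protein, binds E2F proteins and represses their targets. PCNA, the sliding clamp of DNA replication, is a classical E2F target gene and is set beside phu for that reason.

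In E2f1/Dp embryos phu had a normalised signal, in arbitrary units after quantile normalisation, of 5678 and 5639 on the 2 arrays. The control of the same age read 1351 and 850.3, the widest gap on the linear scale between the arrays of any group. Dp mutants read 399.97 and 315, and E2f1 mutants 249 and 163. These 4 groups did not overlap with one another: both overexpression arrays lay above both control arrays, and all 4 mutant arrays lay below them. As group means, phu was 5659 ± 27.6 (SD, n = 2) with E2f1/Dp, 1101 ± 354 in the control, 358 ± 60.05 in Dp mutants and 206 ± 61.2 in E2f1 mutants.

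**Figure D1:**
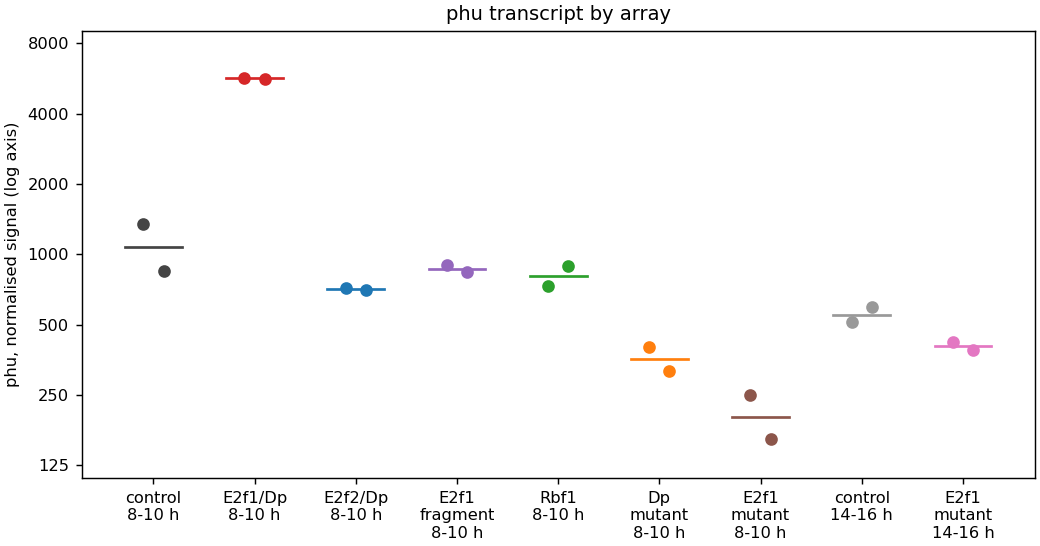
Normalised signal of phu (log axis) on each of the 18 arrays, by group; each point is 1 array and each bar the group mean on the log scale. The E2f1/Dp arrays (5639 and 5678) lie above all others and the E2f1 mutants of 8 to 10 h (163 and 249) below all others.

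Relative to the control, phu was 5.28-fold higher with E2f1/Dp (log2 difference 2.40 ± 0.26, SE), 3.02-fold lower in Dp mutants (-1.59 ± 0.26) and 5.33-fold lower in E2f1 mutants (-2.41 ± 0.26). Among the 8975 units measured, which are genes (1 probe set each) plus probe sets that no single gene names, these differences ranked as the 7th highest, the 70th lowest and the 14th lowest. In these 3 comparisons 0.0891%, 4% and 2.55% of units were called by limma, which is background to the choice of the gene and no result about it. Only 6 units met a fold minimum of 2 in all 3 directions of the choice: phu, PCNA, the deoxynucleoside kinase gene dnk, CG11398 and 2 unnamed probe sets, a set listed after its values were seen. Within each array, phu stood above 97.0% of units in E2f1/Dp embryos, above 72.7% and 83.5% in the control and above 30.2% and 16.9% in E2f1 mutants of 8 to 10 h.

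With E2f2/Dp, the E2f1 fragment or Rbf1, phu stood a little below the control mean, with no difference that passed the test. E2f2/Dp embryos read 717 and 705 (711 ± 8.79), below both control arrays. The log2 difference from the control was -0.59 (95% interval -1.14 to -0.04), with a limma adjusted p of 0.521, in a comparison in which 0.078% of units were called. Embryos with the E2f1 fragment read 895 and 836, which overlapped with the control, and the log2 difference was -0.31 (-0.86 to 0.24, adjusted p = 0.751; 0.791% of units called). Rbf1 embryos read 729.9 and 886, also overlapping, with a log2 difference of -0.41 (-0.96 to 0.13, adjusted p = 0.533; 1.44% called). All 3 comparisons share the control arrays that also stood in the choice of phu, and the value for the fragment depended on 1 of them: without replicate 1 of the control it was 0.025. Without that array the values were -0.26 for E2f2/Dp and -0.08 for Rbf1. Without replicate 2 of the control they were -0.93 for E2f2/Dp (adjusted p = 0.108), -0.64 for the fragment (adjusted p = 0.266) and -0.75 for Rbf1 (adjusted p = 0.167), none past the threshold.

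Set against each other, the E2f2/Dp, fragment and Rbf1 embryos, none of which the choice used, did not differ in phu beyond the spread by limma. The log2 difference was -0.18 (95% interval -0.73 to 0.37, adjusted p = 0.870; 1.31% of units called) for E2f2/Dp minus Rbf1 and -0.28 (-0.83 to 0.26, adjusted p = 0.881; 0.201% called) for E2f2/Dp minus the fragment. For Rbf1 minus the fragment it was -0.11 (-0.65 to 0.44, adjusted p = 0.938; 2.15% called). The widest bound of these intervals is a log2 difference of -0.83, so the 3 lines are not shown to be alike. In the order of group means, the control of 8 to 10 h (1101), the fragment (866), Rbf1 (808) and E2f2/Dp (711) followed each other with steps smaller than the larger of the neighbours' SDs on the log2 scale.

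With age, phu fell in the control and read higher in the E2f1 mutants. The control at 14 to 16 h read 511 and 595 (553 ± 59.2), below both control arrays of 8 to 10 h, a 1.94-fold fall (log2 change -0.96 ± 0.26, limma adjusted p = 0.00731). The younger control arrays of this call are those that stood in the choice of phu. In this comparison 43.2% of all units were called, and 25.6% of all units were called lower, so a fall with age was common among the genes measured. The call did not survive leaving out the first array of the younger control (-0.62, adjusted p = 0.103), the first array of the older control (-0.85, adjusted p = 0.0591), or a fit of the 2 groups alone (adjusted p = 0.0584).

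E2f1 mutants at 14 to 16 h read 422 and 389 (405 ± 23.2), above both arrays of the younger mutants and below both arrays of the control of their own age. The log2 difference from that control was -0.45 (95% interval -0.99 to 0.10) with an adjusted p of 0.399, and 5.6% of units were called in this comparison, whose arrays the choice did not use. The deficit of phu in E2f1 mutants was thus 1.36-fold at 14 to 16 h, not past the threshold, beside 5.33-fold at 8 to 10 h. The younger mutants and the younger control belong to the choice of the gene, and the difference between the ages was therefore not tested. In the order of levels, the older E2f1 mutants (405) and the Dp mutants (358) were neighbours whose arrays overlapped.

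PCNA moved in the same directions as phu in most groups but by other amounts. It read 10849 on each E2f1/Dp array, equal because quantile normalisation gives probe sets of the same rank the same value, 5775 and 4702 in the control, 1828 and 2157 in Dp mutants and 1218 and 1068 in E2f1 mutants of 8 to 10 h. As a share of the control mean on the log scale, E2f1/Dp embryos had 528% of phu and 208.2% of PCNA, Dp mutants 33.1% and 38.1%, and E2f1 mutants 18.8% and 21.9%. By limma the rise of PCNA with E2f1/Dp did not pass the threshold (adjusted p = 0.0652; 0.0891% of units called). PCNA was called lower in Dp mutants (adjusted p = 0.00166; 4% called) and in E2f1 mutants of 8 to 10 h (adjusted p = 2.81e-05; 2.55% called). The excess of phu over PCNA with E2f1/Dp was 1.34 ± 0.30 on the log2 scale, given without a test since it rests on the chosen contrast. In the mutants of 8 to 10 h the 2 genes differed by -0.20 and -0.22, less than the standard error of 0.30.

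**Figure D2:**
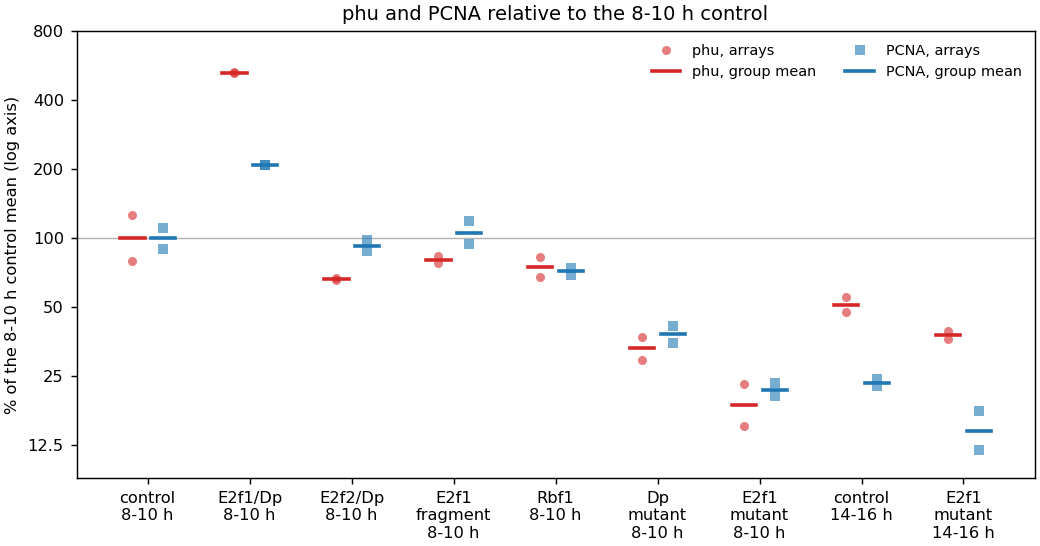
Signal of phu (circles) and PCNA (squares) on each array as a percentage of that gene's mean in the 8 to 10 h control (log axis); bars are group means of 2 arrays on the log scale. With E2f1/Dp phu stands at 528% and PCNA at 208.2%, and in the 14 to 16 h control phu stands at 51.5% and PCNA at 23.4%.

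In the 5 comparisons that did not choose phu, of which 4 share the 8 to 10 h control with the choice, the change of phu minus that of PCNA was tested with limma after PCNA's log2 signal had been subtracted from every unit on the same array. PCNA averaged 5238 ± 759 in the younger control and 1222 ± 61.0 in the older one, a 4.27-fold fall (log2 change -2.09 ± 0.195; adjusted p = 1.51e-06). The fall of phu was smaller, with a difference between the genes of 1.13 ± 0.30 (adjusted p = 0.00211). In that relative comparison 82.9% of units were called, since most genes fell less than PCNA. At 14 to 16 h PCNA read 918 and 623 in E2f1 mutants against 1179 and 1265 in the control (-0.69 ± 0.195, adjusted p = 0.0505), and the change of phu differed from it by 0.25 (95% interval -0.38 to 0.87, adjusted p = 0.513; 25.2% called). For E2f2/Dp, the fragment and Rbf1 against control the differences were -0.49 (-1.11 to 0.14, adjusted p = 0.889), -0.39 (-1.02 to 0.23, adjusted p = 0.881) and 0.06 (-0.56 to 0.69, adjusted p = 0.907), with 0.0669%, 0.669% and 3.71% of units called. From the younger to the older E2f1 mutants, a step given without a test, the log2 difference was 1.01 for phu and -0.59 for PCNA, in a comparison where 35.7% of units were called.

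Over the group means the signal of phu correlated with that of the E2f1 probe set, but it did not follow it in every group. With the fragment E2f1 stood at 235.2% of the control mean on the log scale and phu at 80.7%. With Rbf1 the shares were 353.5% and 75.05%. Over the 9 group means of log2 signal Pearson's r was 0.78 with E2f1, 0.69 with Dp, 0.83 with PCNA, 0.22 with E2f2 and 0.24 with Rbf. These points share the arrays, and 4 of the groups were those that chose the gene, so the values are a description. After quantile normalisation the highest E2f1 signal of the 18 arrays, 13647, was on replicate 2 of Rbf1, where phu read 886. Its deposited E2f1 signal of 8814 was below that of E2f1/Dp replicate 1 (9991). Replicate 1 of Rbf1 read 3221 for E2f1 and 729.9 for phu, and the reason for this gap within the group is unknown. On the 2 E2f1/Dp arrays E2f1 read 12282 and 6952 while phu read 5678 and 5639. The fragment embryos read 4139 and 4702 with the E2f1 probe set, above both control arrays (2654 and 1325), and 895 and 836 for phu. In Dp mutants E2f1 read 1605 and 1227, so that 1 of the 2 arrays lay within the range of the control, while phu lay below it on both. The relation of phu to the dose of E2f1 was not tested. Whether the E2f1 probe set lies inside the fragment or the mutant lesions is not given in the sources used here.

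**Figure D3:**
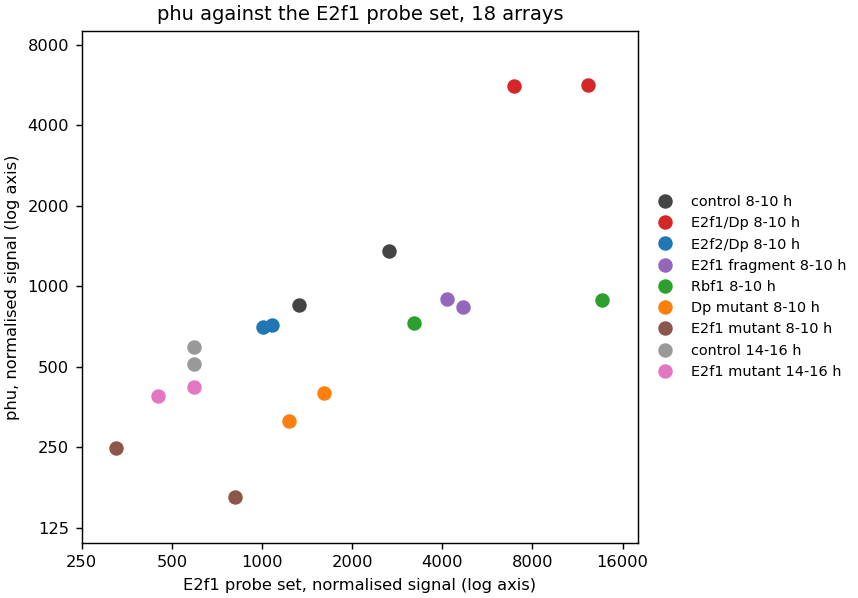
Normalised signal of phu against that of the E2f1 probe set on 18 arrays (both axes log), coloured by group. The Rbf1 array at 13647 for E2f1 (8814 as deposited) reads 886 for phu, and the E2f1/Dp arrays read 5678 and 5639.

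Among 7926 other named genes, those whose 9 group means of log2 signal correlated best with phu were IntS12, a subunit of the Integrator complex (r = 0.92), RnrL, the large subunit of ribonucleotide reductase (0.90), CG14406 (0.90), PSMG1, a proteasome assembly factor (0.89), CG13280 (0.89), TTLL4A, of the tubulin tyrosine ligase-like family (0.88), dnk, the deoxynucleoside kinase (0.88), and CG6479 (0.87). Of these 8, RnrL, dnk and CG6479 were also the 3 nearest over the 18 single arrays (r = 0.88, 0.86 and 0.84), and 2 of the 8 were among the nearest 8 by Spearman's rho. Over the 5 groups that the choice of phu did not use, none of the 8 ranked in the nearest 100. Their r over those groups ran from 0.40 for IntS12 to 0.91 for RnrL, against a median of 0.35 for all named genes. RnrL read 1602 and 1599 with E2f1/Dp, 738 and 519 in the control and 225 and 196 in E2f1 mutants of 8 to 10 h, and its Dp mutant arrays (355 and 414) lay between these. For dnk the arrays read 4629 and 4415 with E2f1/Dp, 2797 and 1711 in the control, 760.3 and 849 in Dp mutants and 765 and 972 in E2f1 mutants. Both enzymes supply deoxynucleotides. By limma neither gene was called with E2f1/Dp (adjusted p = 0.0914 for each), nor was RnrL in Dp mutants (adjusted p = 0.181). RnrL was called lower in E2f1 mutants of 8 to 10 h (adjusted p = 0.00729). The dnk gene was called lower in Dp mutants (adjusted p = 0.00233) and in E2f1 mutants of 8 to 10 h (adjusted p = 0.00338). Both were named for their r to phu over groups that include these, so the calls are a description and no independent support. Of all units 4% were called in Dp mutants and 2.55% in E2f1 mutants of 8 to 10 h. IntS12, first over group means, ranked 86th over single arrays, and its 2 arrays of E2f1 mutants at 8 to 10 h read 87.8 and 426. The most opposite patterns belonged to Kua (r = -0.97) and rtet (-0.95), whose group means spanned 0.78 and 0.97 on the log2 scale, against 4.81 for phu.

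**Figure D4:**
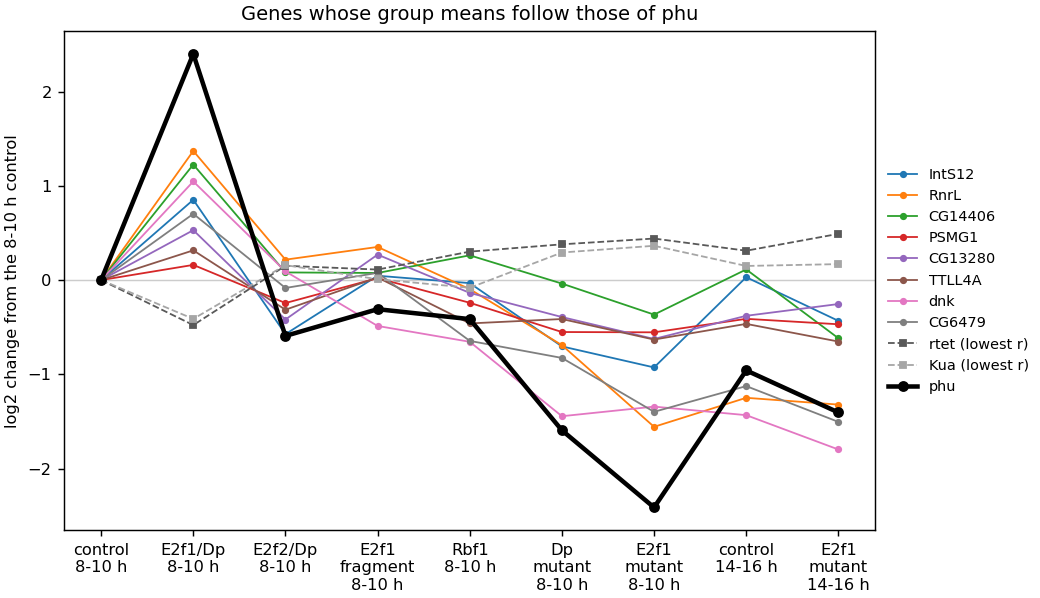
Group mean log2 signal minus that of the gene's own 8 to 10 h control, for phu (thick line), the 8 named genes with the highest r to it and the 2 with the lowest (dashed); lines only join the points of a gene. phu spans 4.81 on this scale, RnrL 2.93 and dnk 2.85.

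DNA replication and nucleotide synthesis genes correlated positively with phu over the group means, which include the 4 groups that chose it. Of 49 genes listed 39 were tested, and all 39 had a positive r with phu (median 0.67, range 0.28 to 0.90), against a median of 0.04 over all named genes; 16 of them ranked among the nearest 100. Over the 5 groups outside the choice 38 of the 39 had a positive r (median 0.91, all named genes 0.35), the exception being PolD2, a subunit of DNA polymerase delta, at -0.43. Those 5 groups span both ages, and phu and most of the list fell with age in the control. A shared fall with age can therefore not be told apart from any other likeness in this r. None of the 39 ranked in the nearest 100 over those groups, the best being Mcm5, a subunit of the replicative helicase, at 204. Both names were chosen after their values were seen. Over all 9 groups the nearest were RnrL, dnk, PCNA and Ts, the thymidylate synthase gene (r = 0.82). With E2f1/Dp 35 of the 39 were higher than in the control (median log2 difference 0.36, highest 1.56, against 2.40 for phu). By limma 0 of the 39 were called there. Of all units 0.0891% were called in that comparison, so a count of 0 is near the background. In E2f1 mutants of 8 to 10 h 16 of 39 were called lower (median -1.34, all units -0.01; 1.35% of units called lower), with 3 called without replicate 1 of the control, 27 without replicate 2 of it, 6 without replicate 1 of the mutants and 1 in a fit of the compared groups alone. In Dp mutants 5 were called lower (median -0.56; 1.92% of units), with 2 called without replicate 1 of the control or replicate 1 of the mutants, 8 without replicate 2 of the control and 0 in a fit of the compared groups alone. With age in the control 32 were called lower (median -1.81, all units -0.19; 25.6% of units called lower).

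The other alkaline phosphatase genes had group means that correlated weakly or negatively with those of phu. All 12 of them are on the array, Alp1, Alp2 and Alp4 to Alp13, and 7 passed the filter on dim probe sets; of the rest Alp13 was at the floor, the lowest signal used (47.5), on all 18 arrays, Alp7 on 17, Alp9 on 16, and Alp10 and Alp11 on 10 each. Their r with phu over the 9 group means ran from -0.53 for Alp12 to 0.35 for Alp8 among the 7. None of the 7 was called in any comparison of a manipulated group with its control, where 0.078% to 5.6% of all units were called, so a count of 0 among 7 is near the background. With age in the control 2 of the 7 were called, both as higher (17.6% of units were called higher): Alp6, from 342 and 420 to 1007 and 1643 (log2 change 1.76 ± 0.41, adjusted p = 0.00267), and Alp5, from 47.5 and 324 to 929.9 and 1070 (3.01 ± 0.95, adjusted p = 0.0189). Alp5 no longer passed when the first array of the younger control was left out (1.61, adjusted p = 0.247), or either array of the older control (adjusted p = 0.0667 and 0.0827). phu fell in the same comparison.

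Alp1, named like Alp5 and Alp6 for its highest signal, had an r of -0.24 with phu. It read 2055 and 2622 in E2f1 mutants of 8 to 10 h, where phu was lowest, and 378 and 679.6 with E2f1/Dp, within the range of its control. Its 2 control arrays read 257 and 1273, so that the log2 difference of the mutants from the control was 2.02 ± 0.58 with a limma adjusted p of 0.0747. With age in the control the Alp1 difference was -1.38 ± 0.58 (adjusted p = 0.0641), of the same sign as that of phu. Between the ages in E2f1 mutants, where phu read higher in the older ones, Alp1 was called lower (-3.60 ± 0.58, adjusted p = 0.000209). Alp6 was called higher there (1.95 ± 0.41, adjusted p = 0.00166), and no other of the 7 was called, with 35.7% of units called.

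**Figure D5:**
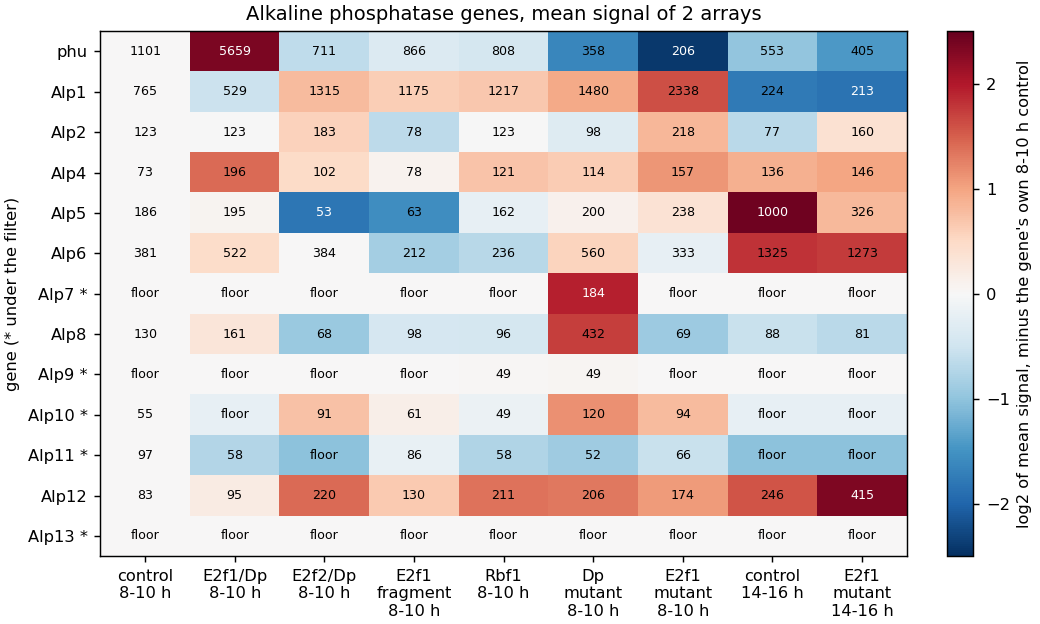
Mean normalised signal of 2 arrays (numbers) for phu and the 12 other alkaline phosphatase genes in 9 groups, coloured by the log2 difference from the same gene's 8 to 10 h control; signals of different genes are not comparable. phu is the gene with the strongest red in E2f1/Dp embryos and the strongest blue in E2f1 mutants of 8 to 10 h; floor marks the lowest signal used, and * genes under the filter.

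The signal of stage-related genes and of tissue markers also differed between groups. A stage index was built from the 300 units that rose and the 300 that fell most between the control ages. Very bright units, phu, PCNA and all listed genes were left out of it. It was scaled to 0 in the control of 8 to 10 h and 1 in that of 14 to 16 h. A genotype effect on its genes cannot be told apart from a shift in stage. The index was 0.134 with E2f1/Dp, 0.235 in Dp mutants, 0.212 in E2f1 mutants of 8 to 10 h and 0.881 in those of 14 to 16 h, and between -0.085 and 0.051 in the other groups of 8 to 10 h. Single arrays gave 0.326 and 0.144 in Dp mutants, and -0.051 and 0.051 in the control of 8 to 10 h. The signal of phu was 163 to 399.97 in the 2 mutants of 8 to 10 h, 511 and 595 in the 14 to 16 h control, and 5678 and 5639 in E2f1/Dp embryos. The mutant and E2f1/Dp values are those that chose the gene. Of 6 midgut markers tested, 6 were called higher in Dp mutants (summed signal 19649 to 37794, control 3264 to 6446, with 2.08% of units called higher). In E2f1 mutants of 8 to 10 h 2 were called higher (7891 to 9934, with 1.2% called higher). With E2f1/Dp 0 were called (7147 to 12504), where 0.0891% of all units were called. All 6 stood above the control in each of these groups, with median log2 differences of 3.06, 0.55 and 1.47 in that order. In E2f1 mutants of 14 to 16 h 4 were called lower (4441 to 5000, control 16471 to 28347, with 3.84% called lower). Of 7 muscle markers, 4 were called lower with the E2f1 fragment (1439 to 3670, control 12907 to 17985; 0.691% called lower). With Rbf1, 1 of the 7 muscle markers and 1 of 3 neuron markers were called lower (65 of 8975 units called lower). Only 3 of 7 listed neuron markers were tested, and 1 of the 3 stood above the control with Rbf1. In E2f1 mutants of 14 to 16 h 2 of 6 neuroblast markers were called higher (158 of 8975 units called higher). No tested marker of muscle, neurons, neuroblasts, haemocytes, midgut or germ cells was at the floor on both arrays of either control. The part of stage and of these tissues in the levels of phu was not tested.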

How the data were processed

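Per the labels, RNA of pooled embryos was hybridised to Affymetrix arrays. The authors deposited linear probe-set signal (intensity) for 13966 probe sets; the summary software is not given in the sources used here, and trimmed means of 495 to 497.5 on all arrays show a common scaling. Array medians were 209.2 to 247.8. No sequence was used. Deposited signals were quantile normalised, set to a floor at the 20th percentile (47.5) and log2 transformed. The dimmest 30% of probe sets were left out and the brightest kept per gene: 8975 units. Symbols came from the platform annotation, updated through RefSeq. Groups were compared in R 4.3.3 with limma 3.58.1, 9 group means fitted to 18 arrays with eBayes(trend=TRUE), two-sided, Benjamini-Hochberg over all units, threshold 0.05 ("called"). Intervals are 95%. The number of arrays limits precision. Only the limma step was tested on simulated data, drawn around the processed signal.

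The gene, lists and tests were chosen with earlier results of these data known. Named are phu, PCNA, E2f1, E2f2, Dp, Rbf, the 8 named genes with the highest and the 2 with the lowest Pearson r to phu over group means, at most 3 phosphatase genes by highest signal and 4 replication genes by r. CG11398, and phosphatase genes named for a count, fall outside this rule. Alternatives covered the scaling (as deposited, or centred on medians), the floor (none, or an offset of 50 before log2), the filter (none, or 50%), every probe set, limma without trend or robust, a replicate block, the compared groups alone and each array left out.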

Additional observations from a re-analysis of the deposited data

Results flagged for a closer look

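The change of phu with age ran in opposite directions in the 2 genotypes measured at both ages. From 8 to 10 h to 14 to 16 h the log2 change was -0.96 in the control, where both older arrays lay below both younger ones, and 1.01 in E2f1 mutants, where both older arrays lay above both younger ones. The difference between these changes was not tested. The younger control and the younger E2f1 mutants both belong to the choice of the gene, which picked levels that lie apart. The fall in the control lost its call in 3 of its recomputed values. The older mutants were picked by hand and the younger ones by a sorter, so age and the way of picking cannot be told apart among the mutants.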

How the results depend on the processing

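Of 195 recomputed values of 13 tested phu results, 188 kept their direction and their side of the threshold, 3 lost the call and 4 changed sign. The fall of phu with age in the control was -0.96 with an adjusted p of 0.0584 in a fit of the compared groups alone, and -1.29 to -0.62 without single arrays (adjusted p = 0.00215 to 0.103). Without single arrays, phu differed from the control by -0.64 to 0.025 with the fragment, Rbf1 from the fragment by -0.24 to 0.035, and the change of phu minus that of PCNA with Rbf1 was -0.12 to 0.25. The cause was not tested. The single values that changed sign were 0.025 for the fragment without replicate 1 of the control, 0.035 without replicate 1 of Rbf1, and -0.02 without replicate 2 of Rbf1 and -0.12 without replicate 2 of the control for the last. The late E2f1 mutant difference of PCNA had adjusted p = 0.0206 to 0.386 without single arrays and 0.0375 to 0.209 otherwise. Replicate numbers are shared between groups only as numbers: deviations correlated at -0.161 to 0.15 (median 0.008), and 4 of 36 pairs exceeded 0.1. In 8 of 9 groups the mean correlation with the other groups was positive, which is at most a weak hint from the data. With the number as a replicate block phu changed by -0.96 with age (adjusted p = 0.00696), and all 13 kept their call, with 3851 units called in place of 3876. Counts of called units ranged without single arrays from 3 to 194 for E2f2/Dp (7), 37 to 230 for the fragment (71), 47 to 353 for Rbf1 (129) and 203 to 357 for late E2f1 mutants (503), and with other settings from 1 to 15, 1 to 83, 2 to 154 and 162 to 557. Between E2f2/Dp and Rbf1, E2f2/Dp and the fragment, and Rbf1 and the fragment they ranged over all alternatives from 12 to 136 (118), 3 to 38 (18) and 22 to 204 (193). Relative to PCNA they ranged from 1 to 101 for E2f2/Dp (6), 37 to 96 for the fragment (60), 5 to 894 for Rbf1 (333) and 271 to 3458 for late E2f1 mutants (2265).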

Other observations

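Genes next to phu on chromosome arm 3R were looked at after the values of phu were seen. Of the 5 protein-coding genes on each side in the RefSeq order, 7 were tested. Their r with phu over the 9 group means ran from -0.42 (GstZ1) to 0.36 (CG8149). With E2f1/Dp the log2 difference from the control was 1.49 for GstZ2, a glutathione S-transferase gene, and between -0.21 and 0.70 for the other neighbours tested, against 2.40 for phu. In Dp mutants it ran from -0.61 to 1.21 and in E2f1 mutants of 8 to 10 h from -0.88 to 1.15, against -1.59 and -2.41 for phu.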
